A study of Mus musculus with 4 samples.

Results

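The genes described here encode the extracellular matrix, the collagens, glycoproteins and proteoglycans around cells, and the enzymes that cut and cross-link it. They were measured in mouse bone marrow cells, flown in space or kept on the ground, that grew in M-CSF, the cytokine that turns marrow progenitors into macrophages. Of 36 genes chosen by name, 35 had at least 1 probe set carrying their symbol alone in the array's annotation. They accounted for 77 of 45037 probe sets and 35 of 18193 genes. Fbn1, which encodes the microfibril protein fibrillin-1, had none and was not analysed here. The genes were chosen with the difference between flight and ground known, so that difference is given as a description, and calls of the test across all genes support nothing about the choice.

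Marrow of 21 adult C57BL/6 mice, over 8 weeks old and with no genetic change named in the labels, was pooled before culture, so animals were not replicated. Both groups received 1.5 µg/ml M-CSF in sealed glass barrels at 37 °C, with fresh medium on culture day 6 and lysis on culture day 15. The space flight group was lysed on flight day 14 aboard a space shuttle, and the ground control group followed the same temperature and mixing schedule on Earth. Lysates were combined by 2 barrels into 4 pools per group, and the 2 pools per group with the best RNA were arrayed.

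Macrophages both degrade and deposit matrix. They secrete the elastase Mmp12 and the collagenase Mmp13, carry the membrane-bound Mmp14 on their surface, and release inhibitors of the Timp family that block these enzymes. Fibrillar collagens and small leucine-rich proteoglycans come mainly from fibroblasts, osteoblasts and other stromal cells, of which marrow holds some. Basement membranes, the thin sheets under epithelium and around vessels, are built from laminins, type IV collagen, nidogen and perlecan.

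Values are log2(intensity + 16) after quantile normalization, differences are space flight minus ground control, and each gene is read from its brightest probe set unless another is named. Genes whose mean over the arrays reached 6.40, the median over all probe sets, are called measured. The RNA integrity number was 3 for every sample, a low value. On space flight array 2 the Gapdh control probes gave a 3'/5' ratio of 15.2, against 3.33 to 4.13 on the other arrays; this ratio rises as RNA degrades. Across measured genes the SD of the difference between replicate arrays was 0.70 in space flight and 0.47 in ground control.

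In the flown cultures the transcript of Mamdc2, a secreted protein with MAM domains, stood 3.58-fold lower than on the ground. Collagen XVIII (Col18a1), the growth factor receptor Pdgfra, thrombospondin-1 (Thbs1) and the inhibitor Timp2 also stood lower, with log2 differences from −1.84 to −0.95. Their other probe sets at or above the limit differed less. These lay at −0.29 for Col18a1, −0.63 for Pdgfra, −0.33 for Thbs1 and −0.10 to −0.16 for Timp2, with overlap for Thbs1 and Timp2. Nidogen-1 (Nid1), the inhibitor Timp1 and the membrane proteinase Mmp14 stood higher, by 0.68 to 1.58. The ground mean of Nid1 lay below the limit, so Nid1 counted as measured only through its flight values. Its other probe sets, both dim, differed by 0.04 and −0.46. Sparc had the largest difference above 0, at 2.02, and its ground mean also lay below the limit. In bulk cultures, fewer cells of a type and less RNA per cell cannot be told apart. Most collagens had values near the limit for measured genes, and their arrays overlapped between the groups. The plot of every array's value by role shows these patterns.

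**Figure D1:**
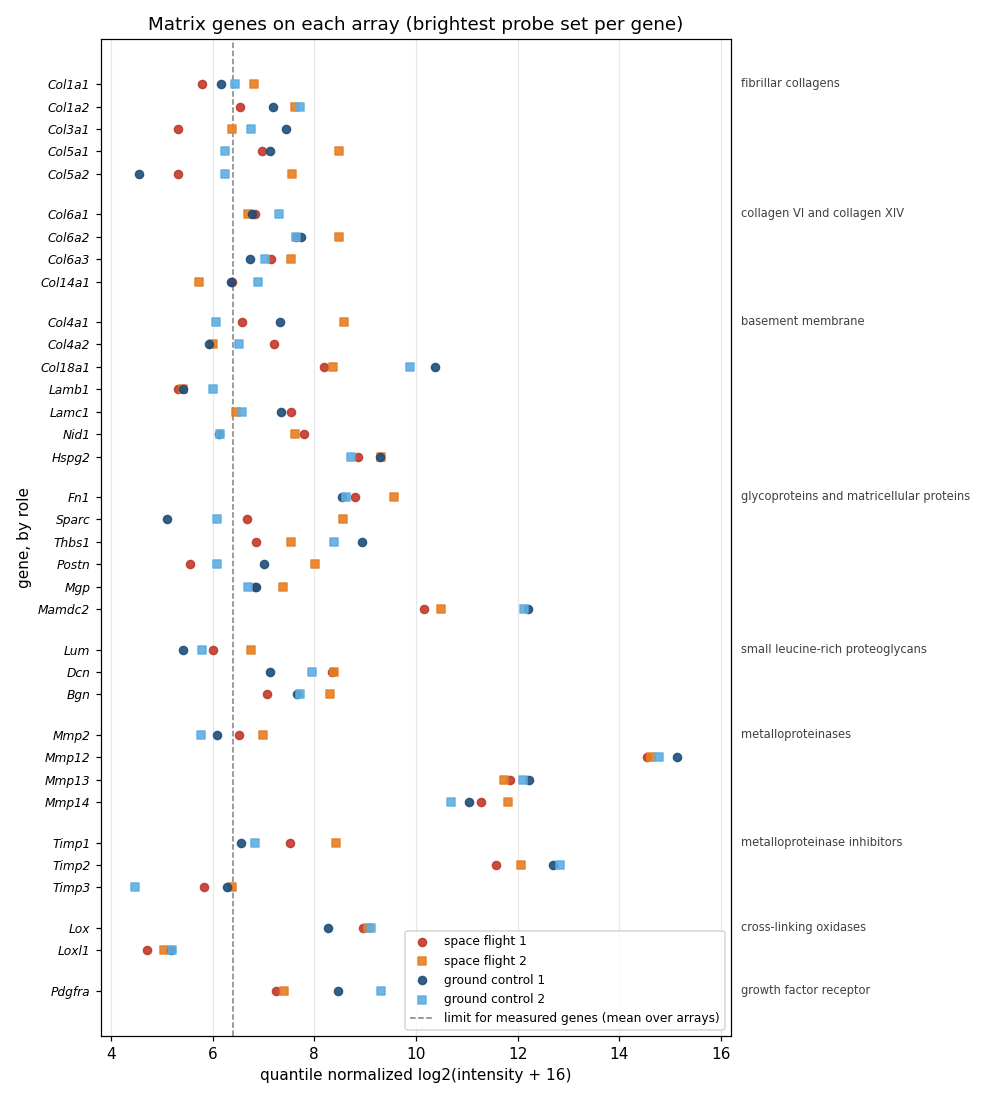
Quantile normalized log2(intensity + 16) of the 35 genes on each array (x axis), with genes ordered by role (y axis); each point is 1 array, and the dashed line is the limit of 6.40. Mamdc2 lies at 10.15 and 10.50 in space flight and at 12.12 and 12.21 in ground control, while Col1a1 lies around the limit in both groups.

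Of the 35 genes, 27 were measured, and in 23 the mean of each group reached the limit. The difference was above 0 for 20 genes and below 0 for 15, with a median of 0.23 against 0.03 over all 18193 genes. This median came mainly from 1 array. Against the ground control mean, the median gene stood at 0.50 on space flight array 2 and at −0.11 on space flight array 1, where all genes stood at 0.04 and 0.01. The median was −0.08 without space flight replicate 2, 0.49 without space flight replicate 1, and 0.08 and 0.14 without ground control replicates 1 and 2. With an array left out the brightest probe set was chosen again, so some genes were then read from another probe set. Space flight array 2 was also the array with the Gapdh ratio of 15.2, and its part in the result was not tested.

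The arrays of the groups did not overlap for 18 of the 35 genes, 9 of them higher and 9 lower in space flight. Over all genes, 41.0% were separated in this way, 21.5% higher and 19.6% lower. Of the 27 measured genes 15 were separated, against 45.5% of all measured genes. Of the 18, 16 were separated in the same direction under each of the 4 array scalings tried. The exceptions were Mmp12, whose arrays overlapped as deposited and under cyclic loess, and Loxl1, whose arrays overlapped as deposited.

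In limma's test across the 11141 measured genes, 1 of the 27 measured matrix genes, Mamdc2, passed an adjusted p of 0.05, and it was lower; 10 of the 27 had an unadjusted p under 0.05. Across all measured genes, 0.0628% passed in either direction and 0.0180% as lower, and 14.2% had an unadjusted p under 0.05. Because this contrast was known when the genes were chosen, nothing is read from these counts. In a fit of all 45037 probe sets with no limit on dim values, 0 of the 77 matrix probe sets and 0.00% of all probe sets passed in limma's test, and 11 of the 77 had an unadjusted p under 0.05 against 8.74% of all. With 2 arrays per group, the smallest two-sided p of an exact permutation test is 0.333.

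**Figure D2:**
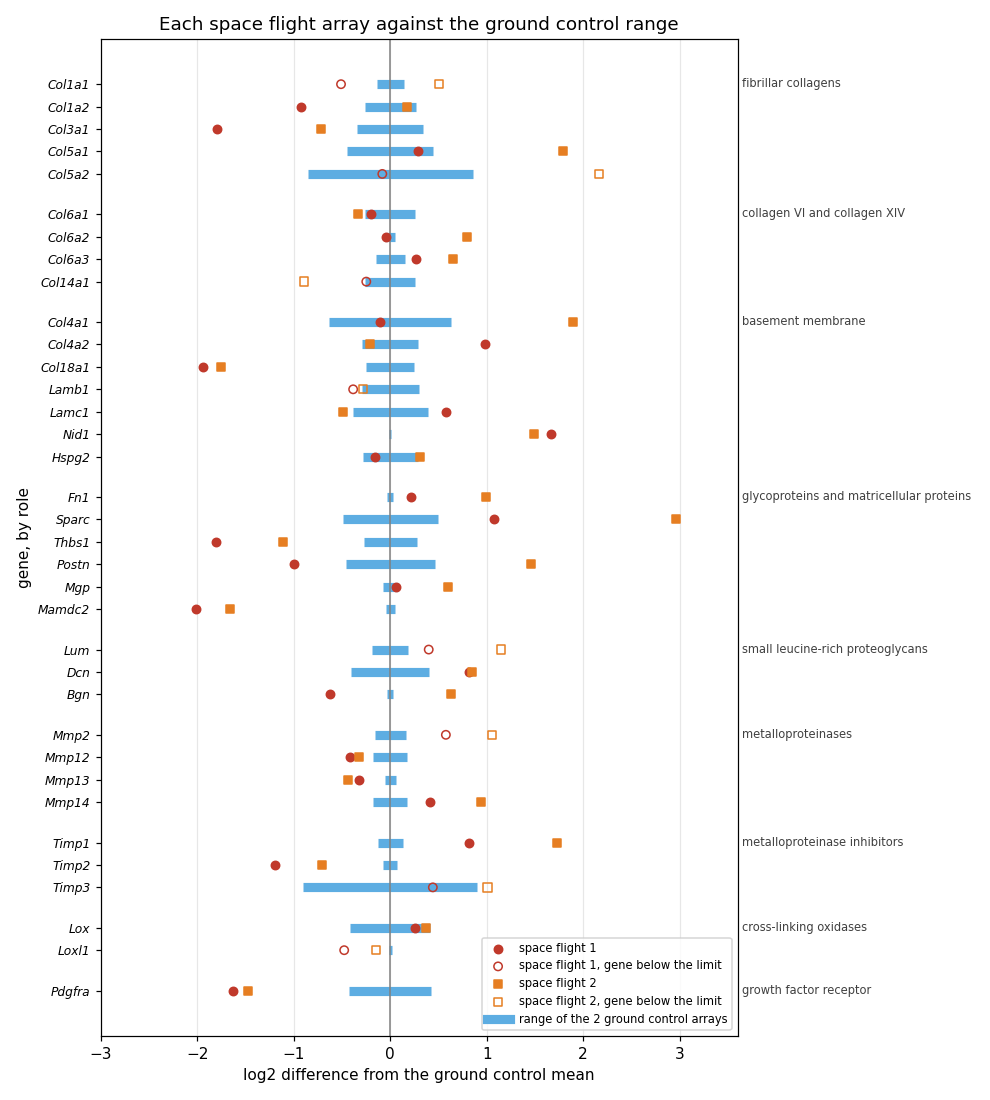
Log2 difference of each space flight array from the ground control mean (x axis) for the 35 genes by role (y axis); points are the space flight arrays, hollow where the gene was not measured, and bars span the 2 ground control arrays. Mamdc2, Col18a1, Pdgfra, Thbs1 and Timp2 have both points left of the bar, Nid1, Timp1, Sparc and Mmp14 have both to the right, and Col1a2, Col5a1 and Col5a2 each have a point on it.

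Among the fibrillar collagens, which assemble into the rope-like fibres of skin, bone and tendon, 3 of 5 genes were measured and 0 of the 3 passed the test. Col1a1, the main chain of bone collagen, had 5.79 and 6.80 in space flight and 6.16 and 6.44 in ground control. These values straddled the limit in both groups, and the space flight arrays enclosed the ground control arrays. Its partner chain Col1a2 had 6.53 and 7.62 against 7.19 and 7.72, a difference of −0.38 ± 0.50 (SE, n = 2 arrays per group). Col3a1, the collagen of early and loose connective tissue, had 5.31 and 6.38 against 7.45 and 6.76, the 1 gene of the 5 whose groups did not overlap. Its flight mean lay below the limit, so the gene counted as measured only through its ground values. The probe set is also of the class that can bind other transcripts. A second probe set of Col3a1, below the limit, differed by 0.21, so its probe sets did not point the same way. Col5a1 and Col5a2, chains of the collagen that starts fibrils, differed by 1.04 and 1.04, with space flight array 2 the highest value of each and overlap between the groups. Col5a2 was not measured, and its second probe set, also below the limit, was separated the other way, at −0.78.

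Collagen VI forms beaded filaments around cells, and collagen XIV sits on fibril surfaces. Col6a1, Col6a2 and Col6a3 differed by −0.27 ± 0.48, 0.38 ± 0.41 and 0.46 ± 0.45 (SE, n = 2). Each difference was smaller than its error or about as large. Col6a3 had 7.16 and 7.54 in space flight against 6.73 and 7.04, a gap of 0.12 between the groups. Col14a1, not measured by its mean, differed by −0.57 and overlapped.

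Within the basement membrane genes, Col18a1 and Nid1 stood apart from the other members in opposite directions. Col18a1 encodes a heparan sulphate collagen whose tail is released as endostatin. It had 8.19 and 8.38 in space flight and 10.38 and 9.88 in ground control, a difference of −1.84 ± 0.32 (SE, n = 2). Both flight values lay 1.50 or more below the ground values, and the ground arrays lay 0.50 apart. The second Col18a1 probe set, of the maker's class that can bind other transcripts, had 8.68 and 8.67 against 8.97 and 8.95, which also did not overlap but differed by only −0.29.

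Nid1, the linker between laminin and type IV collagen, had 7.80 and 7.62 against 6.12 and 6.14, a difference of 1.58 ± 0.46 (SE, n = 2). Its ground control mean lay below the limit, so the gene counted as measured only through its flight values. The other 2 probe sets of Nid1 were dim and differed by 0.04 and −0.46. Perlecan (Hspg2), the large proteoglycan of basement membranes, had 8.85 and 9.32 against 9.29 and 8.73, overlapping at a difference of 0.08 ± 0.34 (SE, n = 2). The laminin chain Lamc1 differed by 0.05 ± 0.54 (SE, n = 2), and Lamb1, not measured, by −0.34. The type IV collagen chains Col4a1 and Col4a2 differed by 0.89 ± 0.68 and 0.39 ± 0.61 (SE, n = 2), and both overlapped. Col4a1 was highest on space flight array 2 and Col4a2 on array 1. A second probe set of Col4a1, below the limit, differed by −0.69 with overlap. The ground mean of Col4a2 lay below the limit, so Col4a2 counted as measured only through its flight values.

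Of the glycoproteins and matricellular proteins, Mamdc2 differed most in relation to its spread. Its deposited intensities were 1155 and 1355 in space flight and 4718 and 4559 in ground control. On the log2 scale these became 10.15 and 10.50 against 12.21 and 12.12, a difference of −1.84 ± 0.25 (SE, n = 2). The groups were 1.62 apart, while the arrays within a group were at most 0.35 apart. The call rested on settings. It was lost with each array shifted to 1 median, with no limit on dim genes, with the mean over probe sets, without an intensity trend and without ground control replicate 1, while the difference stayed between −2.08 and −1.67.

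Thbs1, which binds and activates latent TGF-beta, had 6.85 and 7.55 against 8.93 and 8.38, a difference of −1.46 ± 0.41 (SE, n = 2). Its second measured probe set had 6.75 and 8.58 against 7.76 and 8.23, which overlapped. Fibronectin (Fn1), the main adhesive glycoprotein, had 8.79 and 9.57 against 8.55 and 8.61, and its dimmer probe set lay higher in flight as well, at 0.72 against 0.60 for the brightest. Sparc, a collagen-binding matricellular protein, had 6.67 and 8.56 against 5.10 and 6.08. Both flight values were above both ground values, but the flight arrays were 1.89 apart and the ground mean was below the limit. The difference was 2.02. Without space flight replicate 2 the brightest probe set was chosen again, and the value of 0.44 found there belongs to another, dim probe set. So 0.44 and 2.02 are not like measures. The other probe sets of Sparc, both dim, differed by 0.21 and 0.29 over all arrays. Periostin (Postn) had 5.55 and 8.01 in space flight, enclosing the ground values of 7.01 and 6.09. Mgp, an inhibitor of calcification, differed by 0.33 ± 0.48 (SE, n = 2).

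The small leucine-rich proteoglycans decorate collagen fibrils and limit their width. Decorin (Dcn) had 8.35 and 8.38 against 7.14 and 7.94, a difference of 0.83 ± 0.40 (SE, n = 2). Its second probe set, below the limit, was separated the other way, at −0.67. Lumican (Lum), its neighbour on chromosome 10, was not measured and differed by 0.77, with both flight values above both ground values. Biglycan (Bgn) differed by −0.0012 on its brightest probe set, whose flight values of 7.06 and 8.32 enclosed those of the ground arrays. Its other probe sets, both of the class that can bind other transcripts, differed by 1.28 and 2.15 with no overlap, so the direction for Bgn depends on the probe set.

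Mmp12, Mmp13, Mmp14 and Timp2 lay far above the limit on every array. Mmp12, the macrophage elastase, had 14.55 and 14.64 in space flight and 15.14 and 14.79 in ground control, a difference of −0.37 ± 0.14 (SE, n = 2). As deposited, its intensities of 21828 and 32828 against 31597 and 27371 overlapped, and the difference was −0.14. Mmp13, a collagenase that cuts fibrillar collagen, had 11.84 and 11.73 against 12.22 and 12.11, a difference of −0.38 ± 0.21 (SE, n = 2). Both space flight arrays of Mmp13 lay below both ground arrays, also as deposited, at 3651 and 3283 against 4745 and 4529.

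Mmp14, the membrane-bound proteinase that activates pro-Mmp2, had 11.29 and 11.81 against 11.05 and 10.69, a difference of 0.68 ± 0.28 (SE, n = 2). Its deposited intensities were 2514 and 3497 in space flight and 2145 and 1641 in ground control. Of its 2 other measured probe sets, 1 differed by 0.63 without overlap and 1 by −0.07 with overlap. Mmp2, the gelatinase it activates, was not measured by its mean, and its values were 6.51 and 6.99 against 6.09 and 5.77. Both probe sets of Mmp2 had differences above 0, at 0.81 and 0.62.

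Timp2, which blocks metalloproteinases and also bridges Mmp14 to pro-Mmp2, had 11.57 and 12.06 against 12.69 and 12.84, a difference of −0.95 ± 0.23 (SE, n = 2). Its deposited intensities were 3057 and 4152 in space flight and 6486 and 7457 in ground control. All 4 measured probe sets of Timp2 had differences below 0, but the 3 dimmer ones differed by only −0.10, −0.16 and −0.16 and overlapped. Timp1, an inhibitor induced in activated cells, had 7.51 and 8.42 against 6.56 and 6.83, a difference of 1.28 ± 0.46 (SE, n = 2). Timp3, which is held in the matrix, was not measured, and 3 of its 4 probe sets had differences below 0. The inhibitors Timp1 and Timp2 were thus separated between the groups in opposite directions.

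**Figure D3:**
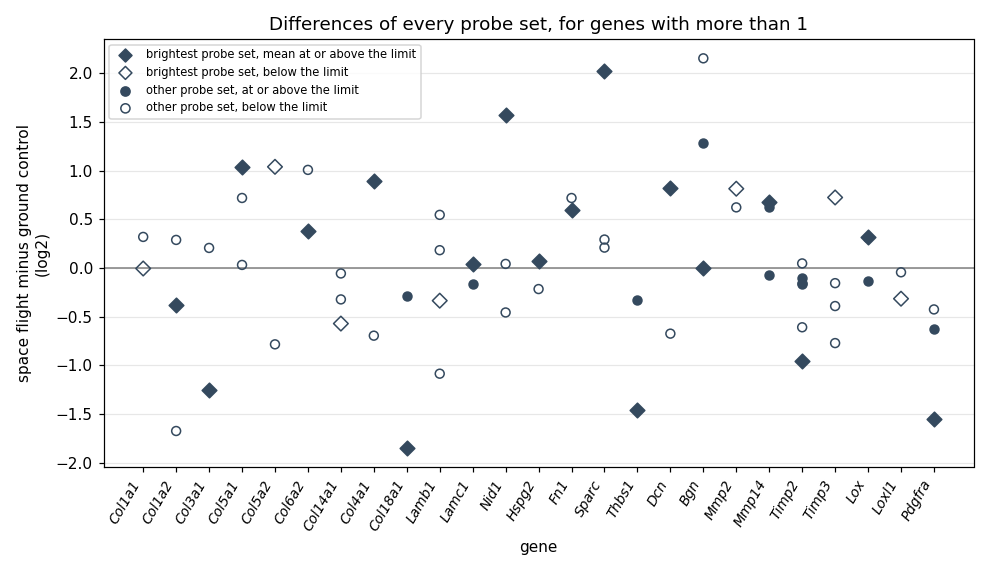
Space flight minus ground control (log2, y axis) of every probe set of the 25 genes with more than 1 (x axis); diamonds are the brightest probe set of a gene, circles the others, and hollow symbols lie below the limit. The brightest probe sets of Col18a1, Thbs1, Timp2 and Pdgfra lie furthest below 0 among the probe sets of their gene, and the other probe sets at or above the limit lie nearer to 0.

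Probe sets often disagreed within a gene. Of the 25 genes with more than 1 probe set, 10 had all differences on 1 side of 0 and 15 did not. Among the 8 genes with more than 1 probe set at or above the limit, the measured probe sets of 4 shared a sign. These were Col18a1, Thbs1, Timp2 and Pdgfra, all lower in space flight, while Lamc1, Bgn, Mmp14 and Lox were mixed. Of all 77 probe sets, 35 were separated between the groups, 18 higher and 17 lower, where 38.5% of all probe sets were separated.

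Mmp13 and Mmp12 lie next to each other at 1 end of a run of metalloproteinase genes on chromosome 9. Their promoters are shown because the 2 neighbours had nearly the same difference after quantile normalization. Under other scalings the values lay further apart, at −0.42 for Mmp13 and −0.14 for Mmp12 as deposited. With each array shifted to 1 median they were −0.62 and −0.34, and under cyclic loess −0.41 and −0.27. Mmp14 and Timp2, on chromosomes 14 and 11, are shown beside them because they act together and differed in opposite directions. The sequences are the 250 bases before each RefSeq start in GRCm38.p6, 5′ to 3′ on the gene's strand; Mmp12 has 2 starts in the table. Capitals mark matches, on either strand, to the AP-1 motif TGANTCA, the ETS motif AGGAAGT, the TATA box TATAAA and the GC box GGGCGG.
Mmp13, chr9:7272264-7272513, plus strand: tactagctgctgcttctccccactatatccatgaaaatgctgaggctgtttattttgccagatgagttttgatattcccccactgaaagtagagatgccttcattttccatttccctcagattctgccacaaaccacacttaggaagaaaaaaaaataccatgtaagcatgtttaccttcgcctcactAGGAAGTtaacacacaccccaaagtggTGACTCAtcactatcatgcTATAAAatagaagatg
Mmp12 at its upstream start, chr9:7344147-7344396, plus strand: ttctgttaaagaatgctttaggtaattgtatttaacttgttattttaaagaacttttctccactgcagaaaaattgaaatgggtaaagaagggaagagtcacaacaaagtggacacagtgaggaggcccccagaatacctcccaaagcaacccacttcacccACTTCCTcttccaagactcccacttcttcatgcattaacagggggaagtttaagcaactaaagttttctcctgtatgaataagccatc
Mmp12 at its downstream start, chr9:7347124-7347373, plus strand: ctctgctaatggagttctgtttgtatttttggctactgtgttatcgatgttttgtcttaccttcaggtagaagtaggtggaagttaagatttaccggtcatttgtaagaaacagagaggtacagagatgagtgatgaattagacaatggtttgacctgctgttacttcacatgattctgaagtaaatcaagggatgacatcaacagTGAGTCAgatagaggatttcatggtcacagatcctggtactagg
Mmp14, chr14:54431348-54431597, plus strand: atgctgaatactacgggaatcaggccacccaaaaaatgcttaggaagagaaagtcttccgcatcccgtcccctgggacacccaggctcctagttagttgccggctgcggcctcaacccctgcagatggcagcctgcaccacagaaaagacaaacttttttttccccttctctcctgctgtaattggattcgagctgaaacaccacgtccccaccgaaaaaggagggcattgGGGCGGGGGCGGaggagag
Timp2, chr11:118355412-118355661, minus strand: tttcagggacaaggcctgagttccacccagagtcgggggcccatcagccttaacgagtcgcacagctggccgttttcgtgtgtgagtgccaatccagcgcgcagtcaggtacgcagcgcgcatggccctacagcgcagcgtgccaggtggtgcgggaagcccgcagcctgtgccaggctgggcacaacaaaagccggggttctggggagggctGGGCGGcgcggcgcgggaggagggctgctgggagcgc

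The AP-1 motif, bound by Fos and Jun proteins, was found 35 bases before the start of Mmp13 and 44 bases before the downstream start of Mmp12. Of 32851 promoter windows of this length, 6.75% held it, and of the 23 of the 36 matrix genes with a window, it was in Col6a1, Mmp12 and Mmp13. The ETS motif was in 7.69% of windows and, among matrix genes, in Col6a1, Mmp12, Mmp13 and Timp1. Mmp13 also had the TATA box, found in 12.4% of windows. Mmp14 and Timp2 held GC boxes, found in 32.7% of windows and in 14 of the 23 matrix genes. A GC box of Mmp14 runs directly into the next. These matches are letters in a window and say nothing of what bound there in these cultures. The percentages count windows, while a gene was counted if any of its windows held the motif, so the percentages and gene counts are not like measures.

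Of the other genes of the run, Mmp1a, Mmp10 and Mmp8 were also separated as lower in space flight, and Mmp3 was separated as higher. Mmp3, or stromelysin-1, had 8.27 and 8.54 in space flight against 6.90 and 5.72, a difference of 2.09 ± 0.49 (SE, n = 2; limma adjusted p = 0.115). The ground mean of Mmp3 lay below the limit, so it was tested only through its flight values. Mmp10, a close relative of Mmp3, had 7.03 and 5.97 against 9.11 and 7.93, a difference of −2.02 ± 0.53 (SE, n = 2; limma adjusted p = 0.128). The neutrophil collagenase Mmp8 had 12.89 and 12.36 against 13.40 and 13.13. Mmp3, Mmp10 and Mmp8 did not pass the test, and the remaining genes of the run with a probe set, Mmp1a, Mmp1b, Mmp20 and Mmp7, were below the limit.

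**Figure D4:**
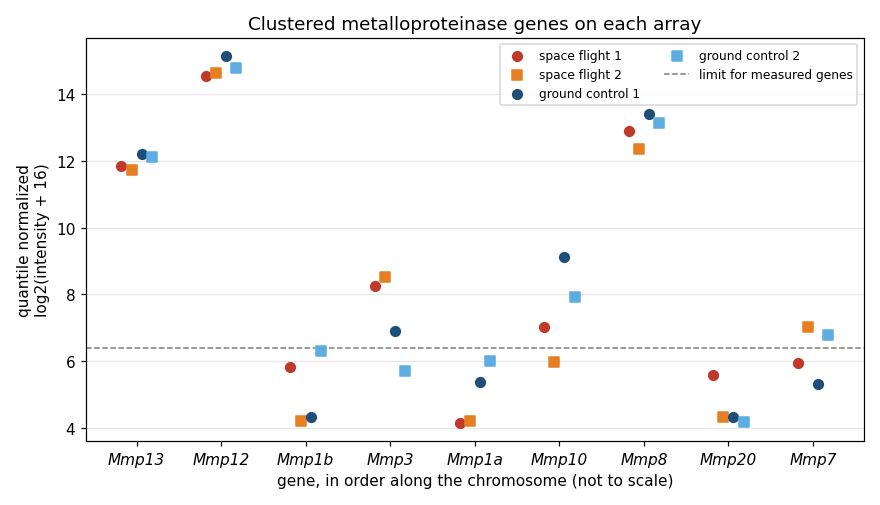
Quantile normalized log2(intensity + 16) on each array (y axis) of metalloproteinase genes in their order along chromosome 9 (x axis, not to scale); points are single arrays and the dashed line is the limit of 6.40. Mmp13, Mmp12, Mmp1a, Mmp10 and Mmp8 have both space flight arrays below both ground control arrays, and Mmp3 has both above.

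Neighbouring matrix genes did not share a direction as a rule. Among the 5 pairs that are next to each other, Dcn with Lum, Col4a1 with Col4a2 and Mmp13 with Mmp12 had differences of 1 sign. Col3a1 and Col5a2, at −1.26 and 1.04, and Col6a2 and Col6a1, at 0.38 and −0.27, did not.

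Lysyl oxidases cross-link collagen and elastin. Lox had 8.95 and 9.06 against 8.27 and 9.11, overlapping at a difference of 0.32 ± 0.36 (SE, n = 2). Loxl1 was not measured, with 4.71 and 5.04 against 5.17 and 5.21. Pdgfra, the receptor that marks fibroblasts and marrow stromal cells, had 7.25 and 7.41 against 8.46 and 9.31, a difference of −1.55 ± 0.40 (SE, n = 2). Its second measured probe set had 7.75 and 7.31 against 8.36 and 7.96, a difference of −0.63, and did not overlap either.

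Many markers of stromal cells were near or below the limit, while Pdpn, Acta2 and Gas6 were bright. The probe set of Acta2 is of the class that can bind other transcripts. Kitl, Cxcl12 and Pdgfrb also lay above the limit on every array. Of 18 fibroblast and stroma markers, 8 were measured, and Prrx1, Twist1, Twist2, Tcf21, Fap and Thy1 were among those that were not. The summed deposited intensity of this list was 7855 and 8689 in space flight and 9371 and 8872 in ground control. Acta2, Pdpn and Gas6 made up most of each sum, so the sums say little of the other genes. Limma's test called 0 of the genes in the list. Of the 8 measured, 1 had an unadjusted p under 0.05, against 14.2% of all measured genes. Acta2 and Pdpn, the brightest of the list, differed by −0.03 and −0.08. Of the 18 genes, 4 were separated as higher in space flight and 4 as lower, against 21.5% and 19.6% of all genes. Cspg4, Tagln, Fap and Kitl differed by 1.73, 1.08, 0.87 and 0.28, and Lepr, Des, Gas6 and Tcf21 by −1.77, −1.26, −0.63 and −0.31. Cspg4 was the gene with the unadjusted p under 0.05, but its ground mean lay below the limit, so it was tested only through its flight values. Lepr, the leptin receptor of marrow stroma, was lower like Pdgfra, but its mean lay below the limit. Of osteoblast markers, 1 of 5 with a probe set was measured (Alpl), as were 3 of 8 endothelial markers (Vwf and Eng the brightest), 1 of 4 adipocyte markers (Fabp4) and 2 of 5 B cell markers. The B cell marker Vpreb1 had 8.41 and 5.76 in space flight against 6.73 and 6.80, Igll1 overlapped as well, and Cd79a had 7.46 and 7.49 against 6.15 and 7.12. Macrophage markers, led by Lyz2 and Cd68, were measured for 7 of 8 genes, with sums of deposited intensity of 91688 and 135567 against 109347 and 117103, which overlapped. On the quantile normalized scale 5 of the 8 were separated as lower in space flight and 2 as higher, against 19.6% and 21.5% of all genes. Mrc1, Adgre1, Cd68, Csf1r and Lyz2 differed by −1.47, −0.56, −0.43, −0.37 and −0.06, and C1qa, below the limit, and Fcgr1 by 1.48 and 1.02. Fcgr1 had a ground mean below the limit and was tested only through its flight values. Of the 7 measured, 4 had an unadjusted p under 0.05 and 0 passed limma's adjusted threshold, against 14.2% and 0.0628% of all measured genes. Megakaryocyte and platelet markers, cells that also hold Sparc and Thbs1, had sums of 7131 and 7970 against 7002 and 7241, mostly from Pf4. Pf4 and Gp9, the brightest in ground control, differed by −0.04 and −0.49 with overlap. The other 4 genes of that list, Itga2b, Ppbp, Gp5 and Gp1bb, were separated as higher, by 1.28, 1.27, 0.82 and 0.24. Over all genes 21.5% were separated as higher. The median of the 6 was 0.53. Of these 6, 2 had an unadjusted p under 0.05 and 0 passed limma's adjusted threshold, against 14.2% and 0.0628% of all measured genes. Gp5 also had a ground mean below the limit. Neutrophil markers, with S100a8 and S100a9 the brightest, had sums of 71866 and 139414 in space flight against 36110 and 41893 in ground control. All 9 were separated as higher, against 21.5% of all genes, with a median difference of 1.63. In limma's test all 9 had an unadjusted p under 0.05, against 14.2% of all measured genes. Of the 9, the 2 granule genes Camp and Ngp passed the adjusted threshold as higher, against 0.0449% of all measured genes. Osteoclast markers, of which Ctsk and Atp6v0d2 were the brightest, had sums of 9284 and 8737 against 18626 and 17050, of which these 2 genes made up most. Acp5 was separated the other way, with 8.79 and 8.55 in space flight against 8.01 and 7.88. The part of any of these cell types in the matrix results was not tested.

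Beyond these members, 177 other matrix genes were listed in 8 groups, 164 had a probe set and 83 were measured. In limma's test across all measured genes, 0 of the 83 passed in either direction, against 0.0628% of all measured genes; 19 had an unadjusted p under 0.05, as had 14.2% of all measured genes. Their median difference was −0.06 over the measured genes, against 0.02 over all measured genes.

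Among the matrix proteases, 6 of 21 measured genes had differences above 0. Ctsk, the collagen-cutting protease of osteoclasts and some macrophages, had 12.57 and 12.53 against 13.80 and 13.33, a difference of −1.02 ± 0.20 (SE, n = 2; limma adjusted p = 0.0910). Mmp9, the gelatinase of neutrophils and macrophages, had 8.99 and 8.89 against 6.77 and 7.66, and differed by 1.73 ± 0.40. The neutrophil marker sum was also higher in space flight, and its part in the value of Mmp9 was not tested. Ctsk is itself 1 of the 7 osteoclast markers and makes up most of their sum, so that sum is no separate measurement.

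Other collagens were measured for 7 of 25 genes, led by Col23a1 at −0.95 ± 0.30, Col7a1 at 1.13 ± 0.40 and Col16a1 at 1.47 ± 0.53, whose ground mean lay below the limit. Of the enzymes that fold and modify collagen, 14 of 20 were measured, and 4 of the 14 had differences above 0. P4hb, a subunit of prolyl hydroxylase, had 14.57 and 14.24 against 14.83 and 14.78, and Ppib and P3h3 differed by −0.26 and −0.78. Of the other glycoproteins and laminins, 14 of 41 were measured. Emilin2 had 11.87 and 11.63 against 12.69 and 12.52, a difference of −0.85 ± 0.21. Agrin (Agrn) differed by −1.63 ± 0.45 and elastin (Eln) by 1.86 ± 0.56, with the ground mean of elastin below the limit.

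The proteoglycan list had 4 of 13 genes measured. Serglycin (Srgn), the granule proteoglycan of blood cells, had 13.48 and 13.42 against 13.68 and 13.85, and Prg4 and Acan differed by 1.47 ± 0.77 and 0.40 ± 0.48. The protease inhibitor list was measured for 5 of 7 genes, with Serpinb2 at 1.36 ± 0.54, Spint1 at 0.64 ± 0.44 and Tfpi2 at −0.51 ± 0.41. The other cross-linking enzymes were measured for 4 of 6 genes. F13a1, the clotting transglutaminase made by macrophages, differed by −0.65 ± 0.20, Qsox1 by 1.16 ± 0.41 and the tissue transglutaminase Tgm2 by −0.24 ± 0.17. In TGF-beta and PDGF signalling, 14 of 20 genes were measured. The receptor Tgfbr2 had 11.41 and 11.60 against 12.48 and 12.22, a difference of −0.84 ± 0.22, while the inhibitor Smad7 and the ligand Pdgfa differed by 0.86 ± 0.35 and 0.75 ± 0.37. All errors in these lists are SEs from limma over 2 arrays per group, and none of these genes passed the test.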

How the data were processed

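Transcripts were measured on 4 arrays, 2 per group. The deposited table holds 1 linear intensity per probe set for 45101 probe sets; the submitters' processing notes name GCOS, and how probes were summarised is not given in the sources used here. Each array's trimmed mean of deposited intensities was 500.004, the mark of scaling by the authors. Array medians differed by up to 0.385 on the log2 scale. The number of arrays limits the precision.

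From these intensities log2(value + 16) was quantile normalized without 64 control probe sets in R 4.3.3. Fold changes on this scale understate the change of dim genes. Of 45037 probe sets, 34945 had 1 symbol, 932 several and 9160 none; 34741 were found in RefSeq's gene table of GRCm38.p6. Each gene was its brightest probe set. The groups were compared with limma 3.58.1 (two-sided; lmFit, then eBayes with prior variance trended on intensity; Benjamini-Hochberg over 11141 measured genes, threshold 0.05). All adjusted p-values come from limma. A fit of all probe sets used no limit on dim values. The procedure was tested on simulated data.

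The matrix genes, and the lists of other matrix genes and cell type markers, were chosen with earlier results of these data known. Named genes were all 36 matrix genes, the 3 genes of each other matrix list with the largest moderated statistic and any past the threshold, and the 2 brightest of each cell type list by ground control mean; genes of the metalloproteinase run and further cell type markers were added after their values were seen. Replicates are culture pools from 1 marrow pool, so p-values cover the spread between cultures and arrays, not animals. Same-numbered samples were not paired by the labels, and their deviations correlated at 0.06 across measured genes. Alternatives changed scaling, pseudocount, the limit, the choice of probe set, the trend, a replicate block and each array left out.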

Additional observations from a re-analysis of the deposited data

How the results depend on the processing

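The 35 matrix differences were recomputed under 15 alternatives, and 22 kept their sign in all of them. Of the 18 genes whose groups did not overlap, 17 did, with Col3a1 the exception. The brightest probe set was chosen again under each alternative. Some recomputed differences are thus of another probe set, as for Sparc, Thbs1 and Pdgfra with an array left out. The median of 0.23 over the 35 genes was −0.084 without space flight replicate 2, and ran from −0.084 to 0.49 with 1 array left out; it was 0.07 with each array shifted to 1 median, where the median of all genes was −0.10. The 5 higher and 2 lower genes of limma's test were 12 and 4 (16 in all) with values as deposited, 16 and 5 (21) under cyclic loess, 6 and 6 (12) with a pseudocount of 64, and 0 each with arrays shifted to 1 median, no limit on dim genes, the mean over probe sets or no intensity trend. With 1 array left out, renormalized, and the lone array taken to vary like the other group, they ran from 9 to 1121 in all; other matrix genes past the threshold ran from 0 to 15, and probe sets stayed at 0. Probe sets past the threshold numbered 4 with values as deposited and 7 with a pseudocount of 1. Replicate numbers did not pair the samples, and with them as a block 433 genes, 231 probe sets and 8 other matrix genes passed. Matrix genes past the threshold numbered 9, 7, 0 and 1 without space flight replicates 1 and 2 and ground control replicates 1 and 2, where 10.0%, 8.08%, 0.0802% and 0.366% of all measured genes passed, and 4 with the block, where 3.89% passed; the causes of these changes were not tested. Dim signal limits what can be said of the 8 genes below the limit, among them Col1a1 and Col5a2.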
